A study of Arabidopsis thaliana with 12 samples.

Results

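The 3 wild-type arrays of a 12-array study of Arabidopsis thaliana are described here, to show which genes gave a strong, a moderate or a near-background signal in untreated seedlings and which differed between replicates. The arrays were taken by their title. The other 9 arrays carry RNA of mbd4, mbd6 and mbd11 mutants and were not used. The wild-type plants belong to the Col-0 ecotype, the standard laboratory background, and were raised on MS medium, a mineral salt medium for plant culture. RNA was taken from whole seedlings at 10 days, so root, hypocotyl, cotyledon and young leaf contribute to each value. The labels call the arrays biological replicates and say nothing of how many seedlings each pooled. All 22746 probe sets other than the 64 Affymetrix controls were kept. Of these, 13513 are assigned to 1 gene, covering 13356 genes, and only those are named.

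A young green seedling lives by photosynthesis in its chloroplasts. The photosystems capture light, the cytochrome b6f complex passes electrons between them, the ATP synthase makes ATP, and the Calvin cycle enzymes fix carbon dioxide. The subunits of these complexes come from nuclear genes and from genes of the plastid's own genome, which is read in long units that hold several genes. Labelling on this array type starts from poly(A) tails, and most plastid transcripts lack a stable tail. A plastid value is therefore no measure of the whole plastid transcript pool.

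Levels are log2 signal intensities as the authors normalized them, with 1 unit standing for a 2-fold difference. With a single group of 3 arrays, no comparison between conditions and no p-value is given; means carry the SD over the 3 replicates (n = 3), and a range is the highest minus the lowest array. Mean levels were put in 5 classes: near background under 5, low from 5, moderate from 7, high from 10, and highest from 12. No detection call was used here, so a gene near background is dim, which does not show that it is silent. A class describes how bright a probe set is. It does not rank transcript numbers between genes, since probe sets differ in how well they hybridize.

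Of the 22746 probe sets, 8516 (37.4%) lay near background, 5849 were low, 7250 moderate, 955 high and 176 (0.774%) in the highest class. The median over all probe sets was 6.13, and means ran from 2.38 to 13.77. The classes meet in a continuum: the nearest probe sets to the bound at 5 had means of 4.9997 and 5.0002, and those nearest to 12 had 11.998 and 12.001. Control probe sets give a scale for the dim end. The 3 probe sets of trp, a bacterial gene, read 2.67 to 3.13, and those of lys 2.87 to 3.69. Those of phe, thr and dap, also bacterial genes, reached higher, with 3.00 to 5.68, 3.02 to 5.63 and 3.73 to 6.46. Some of these values thus lay above the bound at 5. Whether transcripts for these controls were added to the RNA is not known here.

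Pseudogenes were dim almost throughout. Of 989 probe sets for loci that RefSeq annotates as pseudogenes, 953 (96.4%) had a mean under 5, against 37.4% of all probe sets and 39.2% of the 12374 probe sets for nuclear protein-coding genes. Their median was 3.13, against 6.13 over all probe sets. Only AT4G08220, at 7.29, 7.55 and 7.28, and AT1G80020, at 7.02, 6.89 and 7.26, reached the moderate class among them. Both stayed above 5 on each of the 3 arrays.

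**Figure D1:**
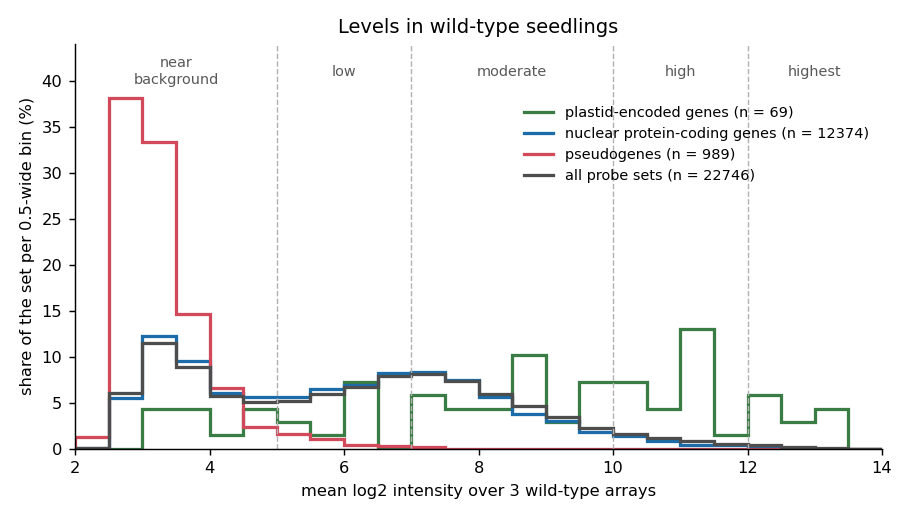
Share of probe sets (%, per bin of 0.5) by mean log2 intensity over the 3 wild-type arrays, for plastid-encoded genes, nuclear protein-coding genes, pseudogenes and all probe sets, with dashed lines at the class bounds. Pseudogenes pile up under 5, with a median of 3.13, while the 69 plastid-encoded genes spread from 3.03 to 13.42.

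Most of the 176 probe sets in the highest class could not be named: 118 have no gene assigned and 7 match several genes. The brightest probe set of all, at 13.77, has no gene assigned. The class held 51 named genes, 9 of them plastid-encoded, and these were led by genes of photosynthesis. Nuclear genes of the photosystems and their antenna stood at a median of 12.70, with 7 of 8 measured members in the highest class. RCA, the activase that keeps Rubisco working, had the highest mean of the named genes, with 13.71, 13.72 and 13.78 on the 3 arrays, a mean of 13.74 ± 0.041 (SD, n = 3). PSAE-1, the photosystem I subunit that helps dock ferredoxin, read 13.25, 13.11 and 13.22. Its arrays differed by 0.13, little next to its level. LHCB4.1, a minor antenna protein of photosystem II, read 13.04, 13.14 and 13.10, and its relative LHCB4.2 read 12.48, 12.69 and 12.82.

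The third antenna gene of that type was dimmer: LHCB4.3 read 8.78, 8.44 and 8.90 and was the only member of the photosystem list below the highest class. PSAN, the lumenal photosystem I subunit, averaged 12.73 ± 0.057, and the small photosystem II subunits PSBY and PSBW averaged 12.75 ± 0.17 and 12.11 ± 0.10 (SD, n = 3). PSB27, a photosystem II assembly and repair factor, lay at the bound of the class, with 12.04, 11.93 and 12.03. ATPC1, the nuclear gamma subunit of the chloroplast ATP synthase, read 12.58, 12.52 and 12.43. AT4G01150, named CURT1A in RefSeq for the curvature of thylakoid membranes, averaged 12.49 ± 0.049.

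Genes of carbon fixation and photorespiration were bright on all 3 arrays. PRK, phosphoribulokinase, which makes the sugar that Rubisco acts on, read 12.36, 12.42 and 12.40. SBPASE, a phosphatase of the same cycle, read 11.79, 11.78 and 11.80 and so lay just under the highest class on every array. HPR, the hydroxypyruvate reductase of photorespiration, read 12.40, 12.25 and 12.27.

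In tetrapyrrole and chlorophyll synthesis, 8 measured genes had a median of 9.56, with 4 in the high class. CHLM, a methyltransferase of the chlorophyll branch, averaged 11.44 ± 0.20, and PORB, a protochlorophyllide reductase that works in light, averaged 11.04 ± 0.074. Both were in the high class on all arrays. The 3 genes of this list with the lowest means were CHLI2, a magnesium chelatase subunit at 8.87, and the glutamyl-tRNA reductase genes HEMA2 at 6.33 and HEMA3 at 3.97. AT1G74470, annotated as geranylgeranyl reductase, an enzyme that supplies the tail of chlorophyll, averaged 12.61 ± 0.050. The nuclear NDH subunits NdhS, NdhL and NdhN, parts of the complex that cycles electrons around photosystem I, lay between 9.69 and 9.85.

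Beyond photosynthesis, the highest class included genes of general metabolism and stress. No kind of gene was counted, and 22 of the 51 named genes are listed under their locus. GAPC2, the cytosolic glyceraldehyde phosphate dehydrogenase often used as a reference gene, read 13.01, 12.82 and 12.86. TPI, the cytosolic triose phosphate isomerase of glycolysis, averaged 12.10 ± 0.080, and SAMDC, which commits S-adenosylmethionine to polyamine synthesis, averaged 12.39 ± 0.095. PRXR1, a peroxidase, read 12.68, 12.76 and 12.79. PYK10, the beta-glucosidase of ER bodies and a member of the root list, read 12.40, 12.53 and 12.46. Of 15 genes on that list 3 were measured, and EXPA7 and EXPA18 were low, at 5.76 and 5.64.

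Genes linked to water deficit were also there: DI19, a drought-induced zinc-finger gene, averaged 12.50 ± 0.055 and AT1G54410, annotated as the dehydrin HIRD11, averaged 12.12 ± 0.11 (SD, n = 3). UBC28, a ubiquitin-conjugating enzyme, read 12.12, 12.22 and 12.37, and ECS1 read 12.48, 12.12 and 12.54. The brightest genes known by locus only were AT5G20290, AT5G15200 and AT2G26500, with means of 12.93, 12.81 and 12.68. Ranges among all 20 brightest genes lay between 0.023 for AT5G20290 and 0.34 for PSBY. In all, 22 of the 51 have their locus as main symbol, though some, such as AT4G01150 and AT1G54410, carry another name as a synonym.

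Most of the housekeeping families had a median in the moderate range, from 7 to 10. Members of these and the following families were chosen by shared symbol, and each gene is given by its brightest probe set. Counted that way, all 13356 genes had a median of 5.63, and 5762 of them (43.1%) were near background. The 7 tubulin genes, which build microtubules, had a median of 8.95 with none near background, and TUA6 was brightest at 10.76, 10.80 and 10.90. The 4 histone H2B genes had a median of 9.19, with HTB4 at 10.05 ± 0.097. The 8 aldehyde dehydrogenases ran from 7.39 for ALDH22A1 to 11.04 for ALDH11A3, with a median of 9.29. All 3 of these families lay wholly above the near-background bound.

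Protein turnover families differed in level. The 13 ubiquitin-conjugating enzymes had a median of 8.81; 10 were moderate, and PEX4, a peroxisomal member used as a reference gene, read 9.17, 9.23 and 9.26. UBC31 alone was near background, at 3.60. The 12 ubiquitin proteases had a median in the low range, 6.37, with UBP23 brightest at 8.42 ± 0.19. None of them had a mean under 5.

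Of the 9 ATG8 genes, whose products coat the autophagosome membrane, all lay at 6.75 or more, and ATG8F read 10.58, 10.77 and 10.71. The 10 VPS genes of vesicle sorting had a median of 7.43. The paralogs VPS24.1 and VPS24.2, both of which encode parts of the machinery that buds vesicles into endosomes, differed within that family: VPS24.1 read 8.17, 8.27 and 7.97, and VPS24.2 read 2.80, 2.86 and 3.15. The 6 LSM genes of mRNA splicing and decay had a median of 8.01, and the 12 subunits of the nuclear RNA polymerases had one in the low range, 6.85, with NRPB6A brightest at 9.27 ± 0.15.

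Large enzyme and transporter families ranged widely in level. Of 47 UGT glycosyltransferases, which attach sugars to hormones and secondary metabolites, 19 (40.4%) were near background, against 43.1% of all genes. UGT88A1 was the brightest at 10.45, 10.19 and 10.68, followed by UGT87A2 at 8.87 and the flavonoid glucosyltransferase UGT78D2 at 8.76. Of 21 beta-glucosidases, 12 (57.1%) were near background while PYK10 was in the highest class and BGLU44 averaged 10.22 ± 0.064. The 19 CYP71B cytochromes P450 reached no further than CYP71B6 at 8.47 ± 0.038, and 9 of them (47.4%) were near background. Among the 11 GSTU glutathione transferases, GSTU20 read 10.74, 11.03 and 10.82, and 2 were near background.

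The SWEET sugar carriers showed this spread in a small family. SWEET11, which exports sucrose towards the phloem in leaves, read 10.82, 11.06 and 10.87. SWEET1 averaged 8.66 ± 0.21, SWEET2 averaged 8.10 ± 0.091, and SWEET17, a vacuolar fructose carrier, averaged 7.42 ± 0.030. These were the only members above 7. The remaining 10 ran from 3.21 to 5.78. Near background were 7 of the 14 (50%), close to the 43.1% of all genes. SWEET8 and SWEET9 of reproductive tissues were among them at 3.59 and 3.97.

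Cell wall genes were mixed. Among 10 EXPA expansins, which loosen walls during growth, EXPA4 read 9.71, 9.55 and 9.65, EXPA15 read 9.29, 9.13 and 9.55, and EXPA8 read 9.41, 8.93 and 9.48. These genes were moderate on every array. EXPA7 and EXPA18, which are active in root hairs, were low, at 5.76 ± 0.18 and 5.64 ± 0.0044 (SD, n = 3). Of 9 XTH genes for xyloglucan remodelling, XTH19 read 9.36, 9.88 and 9.47, and 4 were near background. Of 15 GH9 endoglucanases, 9 were near background and GH9C2 was brightest at 9.35 ± 0.037, and the 22 TBL genes had a median of 5.57, with 8 (36.4%) near background. Over all genes that share was 43.1%.

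Small secreted peptides differed in level from gene to gene. Of 8 LCR genes, relatives of the plant defensins, LCR69 averaged 11.94 ± 0.23 (SD, n = 3) and LCR68 read 10.63, 10.75 and 10.57. The other 6 (75%) were near background, against 43.1% of all genes. Their means ran from 2.73 to 3.78, with no LCR gene in between. Of 5 PDF defensins, PDF2.1 averaged 8.67 ± 0.096, and PDF1.2, known for its response to jasmonate and ethylene, averaged 7.88 ± 0.067. PDF1.2b read 8.63, 8.82 and 8.05, lowest on replicate 3; its probe set is of the type that can also match related transcripts.

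Among 11 RALFL peptides, which signal in growth control, RALFL34 read 10.34, 10.40 and 10.37 and RALFL33 averaged 9.70 ± 0.15. Near background were 4 of them (36.4%), against 43.1% of all genes. The CLE peptides had 2 of 7 genes above 5. These were CLE41 at 8.58 ± 0.090 and CLE44 at 6.47 ± 0.057, a pair made in the phloem that keeps vascular stem cells dividing. CLV3, the peptide gene expressed in a few cells at the tip of the shoot meristem, read 2.97, 3.13 and 3.22. In whole seedlings a gene of few cells and a gene of little RNA per cell cannot be told apart.

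Regulators were dim in some families and not in others, and 43.1% of all genes were near background. Of 7 IAA auxin repressors, 5 were near background and IAA18 alone was moderate, at 8.10, 8.24 and 8.39. Of 4 YUC genes for auxin synthesis, YUC2 was the only one above 5, at 5.75 ± 0.20.

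Of 14 bZIP factors, 6 were moderate, 7 (50%) near background and 1 low, against 43.1% near background over all genes. BZIP53, a regulator of amino acid metabolism under low energy, read 9.33, 9.59 and 9.51. BZIP60, BZIP28 and BZIP17, which respond to misfolded proteins in the endoplasmic reticulum, averaged 8.42 ± 0.057, 7.92 and 7.28, so all of that trio was moderate. Of 6 WRKY factors, 3 were near background; WRKY20 was brightest at 7.20 ± 0.044, and the senescence regulator WRKY53 was at 3.86. The tetraspanins had 8 of 15 genes near background, with TET8, found on secreted vesicles, at 9.57 ± 0.035, and of 6 CHX cation exchangers the guard cell member CHX20 was brightest at 6.94 ± 0.036. DME, a DNA glycosylase that removes methylated cytosine, was the only one of 28 listed DNA methylation and methyl-binding genes with a probe set of its own, and its brightest probe set read 6.37, 6.69 and 6.71.

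**Figure D2:**
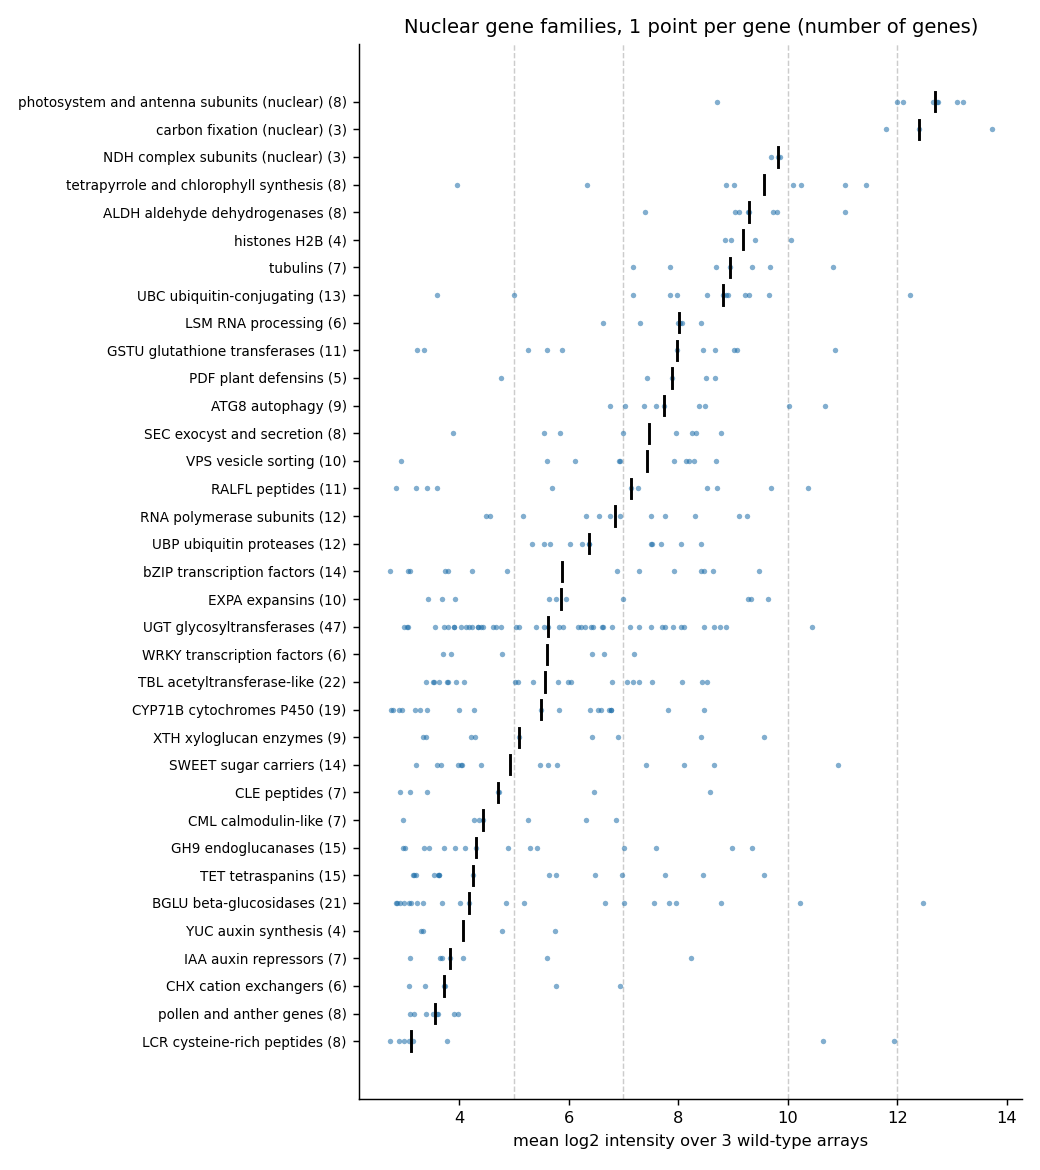
Mean log2 intensity over the 3 wild-type arrays for each gene of 35 nuclear gene families, 1 point per gene, with a black tick at the family median, the number of genes in brackets and dashed lines at 5, 7, 10 and 12. Photosystem and carbon fixation genes cluster from 11.79 upwards apart from LHCB4.3 at 8.70, while the LCR, pollen and CHX families lie mostly under 5, with LCR69 a bright member at 11.94.

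Among tissue markers, genes of green leaf were bright and genes of flower and pollen were near background. The photosynthetic leaf list had 8 of 42 genes measured, with a median of 12.70. Of 15 root genes, 3 were measured: PYK10 in the highest class, and EXPA7 and EXPA18 in the low class. The stomatal lineage factors FMA, SPCH and MUTE, which act in a small set of epidermal cells, differed in class: FMA averaged 6.95 ± 0.076, SPCH averaged 5.72 ± 0.13 (SD, n = 3), and MUTE was near background, with 4.34 on its highest array. Few members could be read: 3 of 16 epidermal, 1 of 9 shoot meristem, 4 of 15 flower and pollen, 1 of 10 clock, 1 of 8 touch and wound and 2 of 16 reference genes were measured. Of 12 vascular and 17 seed genes, 0 had a probe set assigned to them alone.

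Reproductive genes were at the floor. All 8 pollen and anther genes were near background, with means from 3.09 to 3.98, against 43.1% of all genes. AMS, a factor of the anther tapetum, read 3.17, 3.04 and 3.07. ANX1 and ANX2, receptor kinases of the pollen tube, averaged 3.17 ± 0.14 and 3.52 ± 0.18, and the sperm cell histone gene MGH3 read 3.92, 3.50 and 4.31. Of the genes that follow time of day and handling, GI of the circadian clock averaged 6.54 ± 0.093 and STZ, a stress-responsive zinc-finger gene, averaged 7.18 ± 0.097.

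Probe sets of the same gene show how far brightness depends on the probe. For 146 genes with several probe sets, the brightest and the dimmest differed by a median of 1.66, with quartiles of 0.69 and 2.94, and 99 differed by at least 1. Both were in the same class for 58 genes. DME is an example, with means of 3.93, 4.92 and 6.59 for its 3 probe sets, of which 2 are near background. A level class therefore belongs to a probe set, and the family medians above use the brightest one of each gene.

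The 3 arrays were close over most of the transcriptome. Over probe sets, Pearson's r was 0.9952 between replicates 1 and 2, 0.9965 between 1 and 3, and 0.9952 between 2 and 3, a description across probe sets that share these arrays. The median SD was 0.112 and the median range 0.215, and 21229 probe sets (93.3%) had a range under 0.5. The median SD was 0.117 near background, 0.132 in the low class, 0.101 in the moderate class, 0.084 in the high class and 0.071 in the highest class. The low class had the widest spread and the highest class the narrowest. Array medians were 6.11, 6.14 and 6.13.

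Some genes hardly differed between replicates. AT3G07670 had the smallest range of the named genes from 7 to 10, 0.0009, with 8.43 on each array. AT2G36930, AT5G19370 and AT5G55220 held ranges of 0.0053, 0.0054 and 0.0075 at levels of 9.76, 9.74 and 9.68. Among the 376 genes of the 35 families, 15 had a range of 0.5 or more and none reached 1, with a median range of 0.211. Over all 22746 probe sets, 1517 had a range of 0.5 or more. A range of 1 was reached by 25 of all 13356 genes (0.19%), so its absence among 376 does not set the families apart. SEC15B, a subunit of the exocyst, had the largest range of the family genes, with 6.51, 7.31 and 7.13 and the low value on replicate 1.

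A range of at least 1, a 2-fold difference between the highest and the lowest array, was found in 50 of 22746 probe sets (0.22%). The nearest values on both sides of that threshold were 0.994 and 1.002. Of the 50, 27 belong to a single gene, 3 match several genes and 20 have no gene assigned. Replicate 2 stood farthest from the midpoint of the other arrays in 42 of them and was the lowest array in 48. Replicate 3 was farthest in 7 and replicate 1 in 1. Over all 22746 probe sets, replicate 2 was the lowest array in 36.8%. It was farthest in 2945 of 8516 near background, 2327 of 5849 low and 2859 of 7250 moderate probe sets. In the high and highest classes it was farthest in 392 of 955 and 70 of 176. In the high class 2 of 955 probe sets (0.21%) varied to this extent, close to the share over all. None of the 176 in the highest class did, but at that share so small a set is not set apart by it. Between replicates 1 and 3 alone, without replicate 2, 1 probe set differed by at least 1, and without replicate 3 the count was 32.

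**Figure D3:**
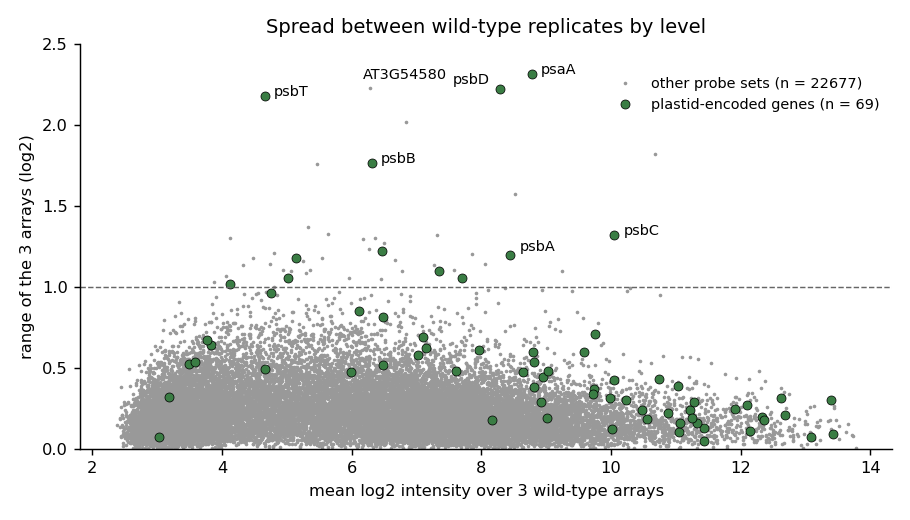
Range over the 3 wild-type arrays (log2) against the mean log2 intensity, for all 22746 probe sets, with the 69 plastid-encoded genes in green and a dashed line at a range of 1. Of the 50 probe sets at or above the line 12 are plastid-encoded, and the largest ranges are those of psaA at 2.31 and AT3G54580 at 2.23.

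Genes of the plastid genome made up 12 of the 27 varying probe sets of 1 gene. In all, 12 of 69 plastid-encoded genes varied, against 0.22% of all probe sets; this list was chosen with earlier results of these data known. psaA, a core subunit of photosystem I that binds the reaction centre chlorophyll, read 9.57, 7.26 and 9.51, a range of 2.31 or 4.97-fold. psbD, the D2 core protein of photosystem II, read 9.04, 6.81 and 9.03. In both genes replicate 2 was low, and replicates 1 and 3 differed by less than 0.1.

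The same array was low for other core subunits of photosystem II. psbB, a chlorophyll-binding core antenna, read 6.86, 5.16 and 6.92, and psbC, the other core antenna, read 10.39, 9.22 and 10.55. psbT, a small subunit, read 5.41, 3.23 and 5.33, so its mean of 4.66 puts it near background although replicates 1 and 3 were above 5. psbA, which encodes the rapidly replaced D1 protein, read 8.67, 7.74 and 8.94. Replicate 2 was the lowest array in 14 of the 15 photosystem II genes.

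Over all 69 plastid genes, replicate 2 lay a median of 0.30 under the midpoint of replicates 1 and 3. It was below that midpoint in 61 genes, against 50.9% of all probe sets, and it was the lowest array in 54, against 36.8%. It was at least 0.5 lower in 21 genes, against 1.67% of all probe sets. The median level of the list was 9.06, 8.77 and 9.13 on the 3 arrays. All 12 varying plastid genes had replicate 2 farthest from the others, and without replicate 2 the count was 0.

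Control probe sets differed on replicate 2 as well. The 3' minus 5' signal of the actin control was 3.89 on replicate 2, against 3.30 and 3.36 on replicates 1 and 3, and that of GAPDH was 0.73, against 0.44 and 0.45. A second set of probe sets for the same controls gave 2.15 for actin on replicate 2, against 1.46 and 1.52, and 0.20 for GAPDH, against 0.014 and -0.011. For ubiquitin, 1 pair was 1.50 on replicate 2, against 1.56 and 1.43, and the other was 0.52, against 0.27 and 0.35. Replicate 2 was thus highest in 5 of the 6 pairs. The 25S rRNA control read 5.64 on replicate 2, against 7.79 and 7.90. The part of these measures in the low plastid values was not tested. Replicate 3 stood apart in another way: all 18 probe sets of the hybridization controls were lowest there, with a mean of 8.81, against 9.45 and 9.46 on replicates 1 and 2.

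The difference was not even across the plastid genome. The median difference of replicate 2 was -0.52 for 7 genes outside the main complexes, all lowest there, from ycf4 at -1.02 to clpP at -0.22. It was -0.48 for 15 photosystem II genes, -0.43 for 4 RNA polymerase genes, -0.37 for 6 ATP synthase genes, -0.30 for 5 photosystem I genes, -0.27 for 6 cytochrome b6f genes and -0.24 for 10 NDH genes. Ribosomal protein genes moved least, with -0.10 for the 8 of the small subunit and -0.097 for the 7 of the large subunit. rbcL, the large subunit of Rubisco, read 10.04, 9.94 and 10.07, a range of 0.12. Bright plastid genes differed little: the 27 with a mean of at least 10 had a median difference of -0.10, against -0.53 for the 32 from 5 to 10 and -0.49 for the 10 under 5.

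Neighbouring genes on the plastid genome, in the order of the RefSeq annotation, did not always share the difference. psbB, psbT, psbN and psbH are neighbours and differed by -1.73, -2.14, -0.96 and -0.61, and petB and petD beside them by -0.20 and -0.49. psaA differed by -2.28, while its neighbour psaB, the partner subunit in the photosystem I core, read 12.27, 12.27 and 12.46 and differed by -0.10. psbD and psbC differed by -2.22 and -1.25, and psbZ beside them by -0.01. In the stretch from ndhD to ndhG, ndhD, psaC, ndhE and ndhG differed by -0.83, -0.82, -0.86 and -0.998, and the next genes ndhI and ndhA by 0.01 and -0.03.

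**Figure D4:**
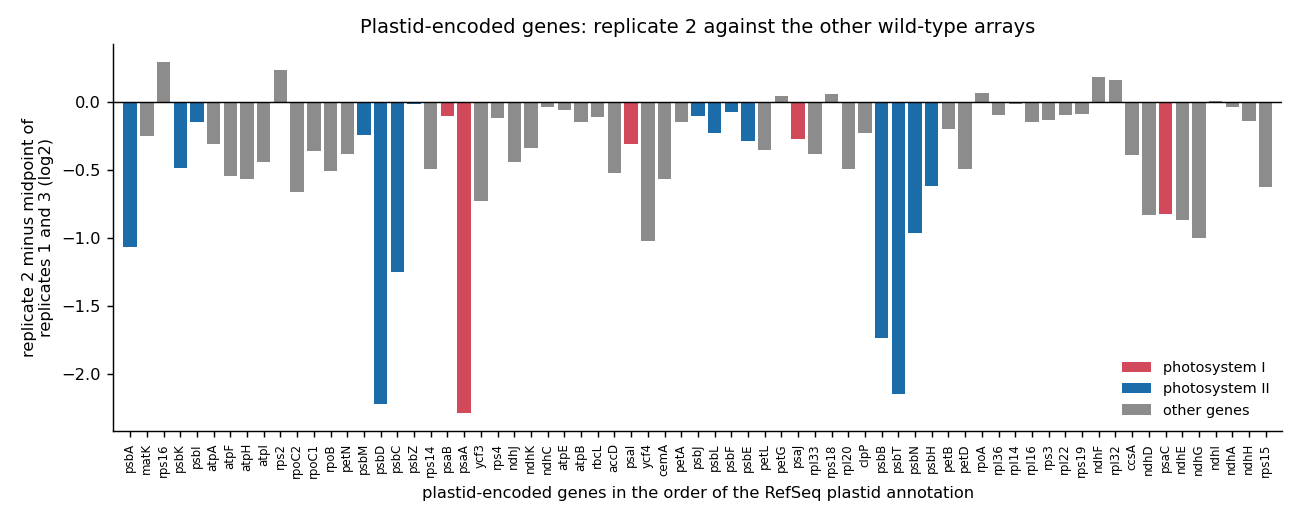
Difference of replicate 2 from the midpoint of replicates 1 and 3 (log2 intensity) for the 69 plastid-encoded genes, in the order of the RefSeq plastid annotation, with photosystem I genes in red, photosystem II genes in blue and other genes in grey. Bars reach -2.28 at psaA, -2.22 at psbD and -2.14 at psbT, while most ribosomal protein genes lie near 0.

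Among plastid genes, the probe sets of atpE, atpB and ndhI had the highest means. atpE read 13.48, 13.39 and 13.41, and its neighbour atpB read 13.60, 13.30 and 13.30. ndhI averaged 13.09 ± 0.038 (SD, n = 3), petB of the cytochrome b6f complex 12.69 ± 0.12 and psbM of photosystem II 12.63 ± 0.16. Dim members were found beside them, such as atpI at 3.83 ± 0.32, ndhF at 3.18 ± 0.17, petG at 3.03 ± 0.038 and rpoB of the plastid RNA polymerase at 3.59 ± 0.29. The list as a whole had 9 genes in the highest class and 10 near background, with a median of 8.95. Genes of 1 complex thus ranged from near background to the highest class.

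Probe sets of the mitochondrial genes measured were mostly dim. Labelling from poly(A) tails applied here too, and its part in these levels was not tested. The mitochondrial probe sets were picked by the symbols nad, cox, ccb and matR, and nad1 alone has 7 of them. Of 22 probe sets, 16 (72.7%) were near background, against 37.4% of all probe sets, and the median was 4.09. ccb382, a cytochrome c maturation gene, was the only moderate one, at 8.29, 7.38 and 8.52, with a range of 1.14 and replicate 2 lowest. nad2, a subunit of respiratory complex I, averaged 4.74 ± 0.62 (SD, n = 3), with replicate 3 the high array at 5.44.

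Among named nuclear genes, AT3G54580 had the largest range, with 6.48, 5.08 and 7.31. TCP15, a TCP transcription factor of leaf and shoot growth, read 6.53, 5.63 and 6.93, and PRA1.B4, a prenylated RAB acceptor of the secretory pathway, read 6.38, 5.42 and 6.71. ATATH8 read 7.71, 6.64 and 7.74. In all 4 the low array was replicate 2. AT5G47060 went the other way, with 6.10, 7.26 and 6.62 and replicate 2 highest.

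Deviations of single arrays from the midpoint of the other arrays were counted for all probe sets. Replicate 2 was at least 0.5 lower in 379 probe sets and at least 0.5 higher in 130. Replicate 1 was lower in 121 and higher in 125, and replicate 3 was lower in 92 and higher in 210. The excess of low values was thus on replicate 2. Genes named for the other arrays moved less: AT2G32600 was high on replicate 1, with 7.45, 6.63 and 6.72, CYP71B24 was low there, with 6.06, 6.84 and 6.74, and ATKDSA2 was low on replicate 3, with 7.76, 7.59 and 6.98.

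**Figure D5:**
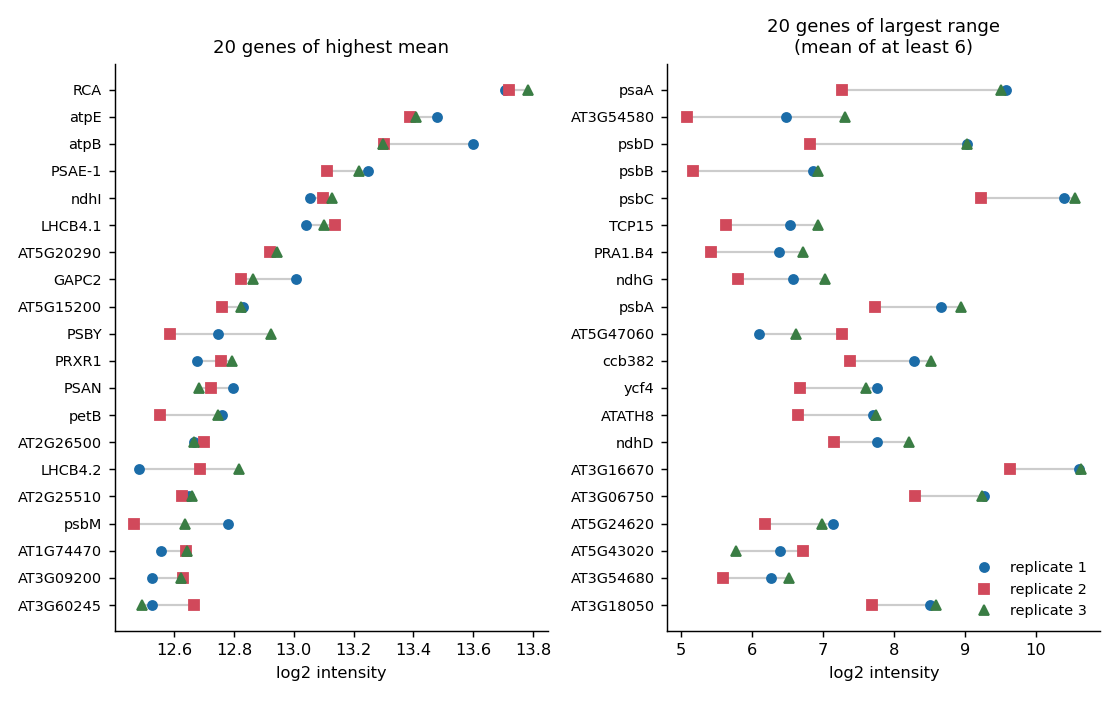
Log2 intensity on each of the 3 wild-type arrays for the 20 genes of highest mean (left) and the 20 of largest range with a mean of at least 6 (right, on a wider scale), with a grey line from the lowest to the highest array. On the left no range exceeds 0.34, and on the right replicate 2 is the lowest array for all but AT5G47060 and AT5G43020.

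Where a gene had several probe sets, the low value on replicate 2 was more often in the dimmer one. Taking the dimmest and the brightest probe set by replicates 1 and 3 alone, the median difference of replicate 2 was -0.14 for the dimmest and -0.016 for the brightest over 146 genes. It was lower in the dimmest for 93 of these. With both probe sets at 5 or more in the mean of replicates 1 and 3, it was -0.30 and 0.02 over 50 genes. It was lower in the dimmest for 43 of these. Replicate 2 took no part in that filter, so a probe set could pass on the arrays where it was high. The filter can thus favour low values on replicate 2 in the dimmest. AT1G01320 had the widest gap of the 146 genes between the differences of its dimmest and its brightest probe set. It read 5.75, 4.45 and 6.21 with its dimmest and 10.14, 10.12 and 10.42 with its brightest. Replicate 2 thus differed by -1.53 in the dimmest and by -0.16 in the brightest. AT3G26590 went the other way, with 0.57 in the dimmest and -0.19 in the brightest.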

How the data were processed

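The deposited values are log2 intensities that the authors made by RMA in R 2.11, per the submitters' processing notes. RMA in general corrects the background, quantile-normalizes the arrays and summarises each probe set; the settings are not stated. For scan dates or batches, nothing was found in the labels. RNA was labelled by a 3' IVT protocol, per the labels' protocols. No value was changed.

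Means, SDs and ranges over the 3 wild-type arrays were computed with Python 3.11.15, pandas 2.3.3 and numpy 2.4.6, and were tested on simulated data. Of the 22810 probe sets, 64 controls only described the arrays; 13513 belong to 1 gene, 503 to several and 8730 to none in the platform annotation, and 13436 matched RefSeq's TAIR10.1 table, used for names, gene types and plastid gene order. Missing values numbered 0 and identical array pairs 0. A gene was represented by its brightest probe set.

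Named genes are the 20 of highest mean, the 20 of largest range at a mean of at least 6, the 4 farthest above and below the other arrays for each array, the 6 of smallest range from 7 to 10, and for each list up to 4 of highest mean and 3 of largest range. Other genes named, among them dim family members and several of the highest class, were chosen after their values were seen. Members and lists were chosen with earlier results of these data known, and the 35 families after levels were seen. Another family is not reported here. No count test, contrast or p-value applies to 1 group. The number of arrays limits the precision.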

Additional observations from a re-analysis of the deposited data

How the results depend on the processing

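No paired analysis was possible because there is only 1 group, so no contrast exists to block by replicate number. The count of probe sets near background was 8516 and ran from 7357 to 9687 with the bound moved by 0.5, was 6054 with a bound at 4, an alternative chosen after seeing the data, and ran from 8510 to 8527 without 1 replicate. The highest class of 176 depended on its bound, with 300 probe sets from 11.5 and 81 from 12.5, and ran from 176 to 182 without 1 replicate. As a share of probe sets, near background was 37.4% over all, 43.4% over those of 1 gene and 36.6% without those ending in _s_at or _x_at, and the highest class was 0.774%, 0.377% and 0.715%. The 50 varying probe sets were 1517 at a range of 0.5, 56 with the arrays centred on a common median, 49 after quantile normalization of these arrays, 38 at a mean of at least 5 and 45 with values under 4 raised to 4. Without 1 replicate they ran from 1 to 40: replicate 2 decided the count, with 1 left without it, and 32 and 40 without replicates 3 and 1. The 12 varying plastid genes were 10 at a mean of at least 5 and ran from 0 to 9 without 1 replicate, with 0 without replicate 2, and the median difference of all 69 plastid genes on replicate 2, -0.30, was -0.33, -0.29 and -0.25 under centring, quantile normalization and a mean of at least 5; these plastid alternatives were chosen after seeing the data. Of 37 list medians 2 moved under each left-out replicate, with shifts from -0.14 to 0.12 over all lists. The planned share of promoters with TATAAA was not run. Ranges under 5 rest on dim signals.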
